A study of Mus musculus with 15 samples.

Results

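The genes Ptprj and Pik3r5 were followed across an LPS time course in mouse macrophages, through the accessible chromatin called at each locus. The members were every deposited peak that overlaps chr2:90260000-90430000 for Ptprj or chr11:68230000-68330000 for Pik3r5, both on mouse build mm9. These windows hold 590 of the 1041543 nuclear peaks of the 15 lists, 343 at Ptprj and 247 at Pik3r5. Merged where they overlapped by at least 1 bp, the peaks formed 6 regions at Ptprj and 7 at Pik3r5, out of 104855 in the series. The pair was chosen by how its peaks widened at 2 h in these same libraries, so every width and covered length below is a description with no test. The working name of the pair, widening at 2 h, described the values at Ptprj, where the widest peaks of the 2 h libraries stood above those of all 12 others. As the choice used these same widths, this is no separate support for the name. At Pik3r5 the peaks were already wide at 30 min, and the 2 h libraries overlapped those of 30 min and 1 h.

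ATAC-seq marks the DNA that a transposase can reach. It was applied to primary bone marrow-derived macrophages of C57BL/6 mice on day 7 of differentiation. The cells had received lipopolysaccharide (LPS, a component of the outer membrane of bacteria, sensed through TLR4) at a dose of 10 ng/ml, lasting 30 min, 1 h, 2 h or 4 h, or were untreated. Each group held 3 libraries, called triplicates in the labels; separate mice or cultures are not mentioned, and the spread between replicates may be technical. The labelled cell type was not checked here, since no annotation of mm9 was used.

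Ptprj encodes a receptor-type tyrosine phosphatase also known as CD148 or DEP-1. Like CD45, it acts on the regulatory tyrosines of Src family kinases, which carry signals from immune receptors in macrophages. Pik3r5 encodes p101, a regulatory subunit of the class IB phosphoinositide 3-kinase PI3K-gamma. It binds the beta-gamma subunits of G proteins and so couples the catalytic subunit, the product of Pik3cg, to chemoattractant receptors of myeloid cells. Pik3r6 encodes the other known adaptor of that kinase. Among the protein-coding genes of RefSeq's GRCm38.p6, ordered by position, Pik3r5 lies between Ntn1 and Pik3r6. In the same order Ptprj lies between Olfr1274 and Gm46752, with Nup160 next beyond Gm46752.

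The sequences upstream of the annotated starts are shown because both loci widened in LPS-treated cells. RefSeq's GRCm38.p6 lists 2 starts for Ptprj, at chr2:90479175-90479424 and chr2:90580596-90580845 on the minus strand, and 1 for Pik3r5, at chr11:68431875-68432124 on the plus strand. Each interval is the 250 bases before the start, written 5′ to 3′ on the gene's strand. That build differs from the one of the peaks, so these positions cannot be set against the peaks. Capitals mark matches on either strand to the core of PU.1 sites (GAGGAA) and to the GC box (GGGCGG).
Ptprj, start 1: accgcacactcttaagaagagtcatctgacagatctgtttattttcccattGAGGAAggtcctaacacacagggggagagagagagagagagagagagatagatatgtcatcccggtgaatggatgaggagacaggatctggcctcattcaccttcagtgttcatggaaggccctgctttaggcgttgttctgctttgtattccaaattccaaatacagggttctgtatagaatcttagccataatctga
Ptprj, start 2: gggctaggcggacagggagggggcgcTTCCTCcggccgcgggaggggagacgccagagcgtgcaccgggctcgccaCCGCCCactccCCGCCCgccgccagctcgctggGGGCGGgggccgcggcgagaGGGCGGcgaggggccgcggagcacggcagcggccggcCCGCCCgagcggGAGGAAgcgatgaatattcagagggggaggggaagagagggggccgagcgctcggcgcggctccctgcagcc
Pik3r5: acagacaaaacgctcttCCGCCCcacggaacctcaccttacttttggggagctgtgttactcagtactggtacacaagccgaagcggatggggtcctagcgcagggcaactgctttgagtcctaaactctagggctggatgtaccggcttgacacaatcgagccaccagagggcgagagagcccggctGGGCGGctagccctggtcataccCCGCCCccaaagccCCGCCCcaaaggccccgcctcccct

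Start 1 of Ptprj held 1 PU.1 core and no GC box, and 44.8% of its bases were G or C. Start 2 of Ptprj was GC-rich, at 79.2%, and held 2 PU.1 cores and 5 GC boxes, none of which overlapped another. The Pik3r5 sequence held 4 GC boxes and no PU.1 core, at 61.6% G or C. Among the 32851 promoter sequences of the same length, the median was 52.4% G or C, 23.3% held a PU.1 core and 32.7% held a GC box. No match to AP-1 (TGANTCA), CRE (TGACGTCA) or the NF-kappaB consensus was found in these 3 windows on either strand. Those motifs had a match in 6.75%, 1.55% and 7.25% of all promoter sequences. A match is a run of letters, not a bound site, and its absence says only that the letters are not in the window.

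The length of the lists touches every value below. Lists held 52447 to 82222 nuclear peaks and covered 84.0 to 129 Mb. The 2 h lists held 66955 to 82222 peaks, against 60140 to 73511 in the untreated ones. Peaks of at least 10 kb numbered 78 to 88 in the 2 h lists and 17 to 37 in the untreated ones. Read depth behind the lists is unknown, and a base outside a peak is only one where none was called.

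At Ptprj, separate peaks of untreated cells gave way to blocks of 37719 to 64074 bp in cells after 2 h of LPS. The part of the 170 kb window under a peak averaged 79.0% ± 1.60 at 2 h, against 19.4% ± 5.16 in untreated cells (SD, n = 3 each). The widest peak averaged 50682 ± 13183 bp at 2 h, against 4104 ± 1490 bp in untreated cells (SD, n = 3 each). By 4 h the blocks had broken up again into shorter peaks, although more of the window was covered than in untreated cells.

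**Figure D1:**
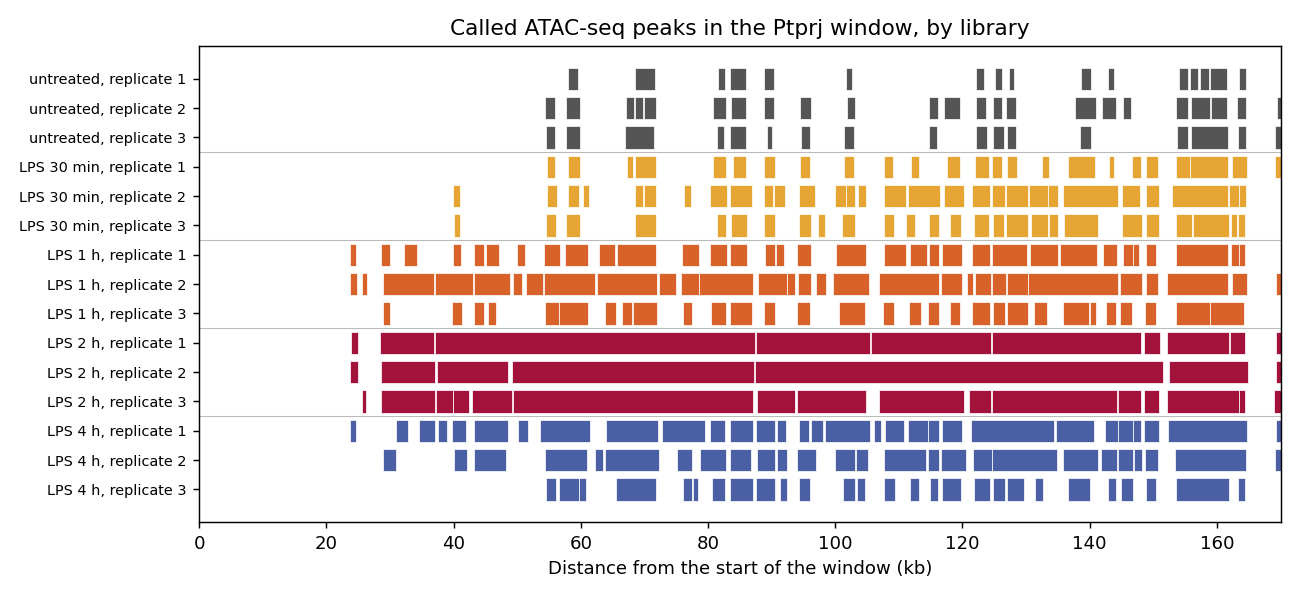
Called peaks in the Ptprj window, 1 row per library from untreated cells at the top to 4 h of LPS at the bottom, against the distance from the start of the window in kb. Each bar is a deposited peak; the 7 to 16 peaks of each 2 h library include blocks of up to 64074 bp, and untreated libraries hold 16 to 23 short ones.

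The covered length at Ptprj was 24282, 41820 and 33001 bp in the untreated libraries. It was 46993, 74575 and 57670 bp at 30 min and 88522, 125684 and 72305 bp at 1 h. At 2 h it was 135739, 135977 and 131137 bp, and at 4 h 111422, 99143 and 61793 bp. The libraries of all 4 LPS times lay above all untreated ones, and the 2 h libraries above all 12 others. How many windows across the genome show 2 h apart from the other LPS times was not counted. This holds for covered length, width and number of peaks at both loci, so nothing is read from that order. The 2 h mean exceeded the untreated mean by 101250 bp, a 4.06-fold difference. The replicates lay closest together at 2 h, with an SD of 2728 bp, while those of 1 h and 4 h spread over SDs of 27366 and 25848 bp.

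Windows of the same length across the genome give the background for such separation. Of 9702 windows, all 3 libraries lay above all 3 untreated ones in covered length in 4.25% for 30 min, 5.05% for 1 h, 23.4% for 2 h and 11.6% for 4 h. Separation at 2 h was thus common among windows, and nothing is read from it for Ptprj. In size, none of the 9701 other windows had a larger difference in covered length between 2 h and untreated cells, and the median window differed by 790 bp. That rank was not particular to 2 h: a larger difference was found in 10 windows at 30 min, in 0 at 1 h and in 1 at 4 h. For the widest peak, 2 other windows had a larger difference at 2 h. The Ptprj window was chosen for its widths at 2 h, while the other windows tile the genome without regard to any locus. A high rank was thus partly set by that choice, and nothing is read from it. As a share of all bases under a peak in its own list, the Ptprj window at 2 h was 3.39-fold its untreated share. On that scale the 1 h libraries overlapped those of 2 h, with the highest at 1109 ppm of covered bases at 1 h and the lowest at 1066 ppm at 2 h.

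The widest Ptprj peak was 3144, 3348 and 5821 bp in the untreated libraries, 5865, 8799 and 5738 bp at 30 min, and 8276, 14128 and 5457 bp at 1 h. At 2 h it was 50252, 64074 and 37719 bp, and at 4 h 13056, 11080 and 8378 bp. In the peaks as called, the lowest 2 h value was above the highest of the 12 others by more than the full range of those 12. The margin was much narrower with neighbouring peaks within 1000 bp joined. The lowest 2 h value was then 76329 bp, and the highest of the 12 others was 69669 bp, in replicate 2 at 1 h. Libraries at 30 min and 1 h overlapped the untreated ones, and those at 4 h lay above them. The overlap rested on untreated replicate 3 and on replicate 3 of each of those times: leaving out any of these ended it, with differences of 3555 and 3228 bp at 30 min, and 6041 and 7098 bp at 1 h, against 2696 and 5183 bp with all libraries. It also ended where peaks within 500 bp were joined, which gave differences of 2951 bp at 30 min and 11391 bp at 1 h, and at 1 h after scaling to covered length, at 5137 bp. Without replicate 2 of its own time the difference was 1697 bp at 30 min and 2762 bp at 1 h. The 2 h mean was 12.3-fold the untreated mean and 4.68-fold the 4 h mean. Where neighbouring peaks within 500 bp were joined, the difference between 2 h and untreated cells was 86553 bp in place of 46577 bp. The share of equally long windows whose widest peaks separated from the untreated ones was 5.27% for 30 min, 5.49% for 1 h, 15.8% for 2 h and 11.9% for 4 h. In their own lists the 3 widest Ptprj peaks at 2 h ranked 2, 2 and 4, against ranks 1498, 3019 and 205 for the untreated libraries.

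The blocks at 2 h were not the same interval in each library. In replicate 1 the widest spanned chr2:90297092-90347343, and in replicate 3 it spanned chr2:90309351-90347069. In replicate 2 it lay next to these, at chr2:90347421-90411494, and a further block of 37963 bp covered the side where the other libraries had theirs. All 3 libraries left the 77 bp at chr2:90347344-90347420 without a peak, and so did the 12 other libraries. Under the block of replicate 2, the untreated libraries had 7, 11 and 8 peaks and the 4 h libraries 16, 15 and 17. Under that of replicate 1 the untreated libraries had 4, 7 and 5 peaks and the 4 h libraries 9, 8 and 8. The scores of the 3 widest blocks were all 3100, a value at which many peaks of every list are tied, so scores did not rank them.

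The number of peaks at Ptprj first grew and then dropped. It was 16, 23 and 17 in untreated libraries, 24, 29 and 26 at 30 min, 33, 29 and 30 at 1 h, 10, 7 and 16 at 2 h, and 30, 26 and 27 at 4 h. Counts at 30 min, 1 h and 4 h lay above all untreated ones, against 1.64%, 2.88% and 6.34% of equally long windows. The 2 h counts were below those of the other LPS times and overlapped the untreated ones at 16. The share of windows with such an order among LPS times was not counted. Peaks of at least 10 kb numbered 4, 4 and 5 at 2 h, against 0 in each untreated library. There were none at 30 min, 0, 1 and 0 at 1 h, and 2, 2 and 0 at 4 h. The median gap between neighbouring peaks averaged 493 bp at 2 h and 2952 bp in untreated cells.

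**Figure D2:**
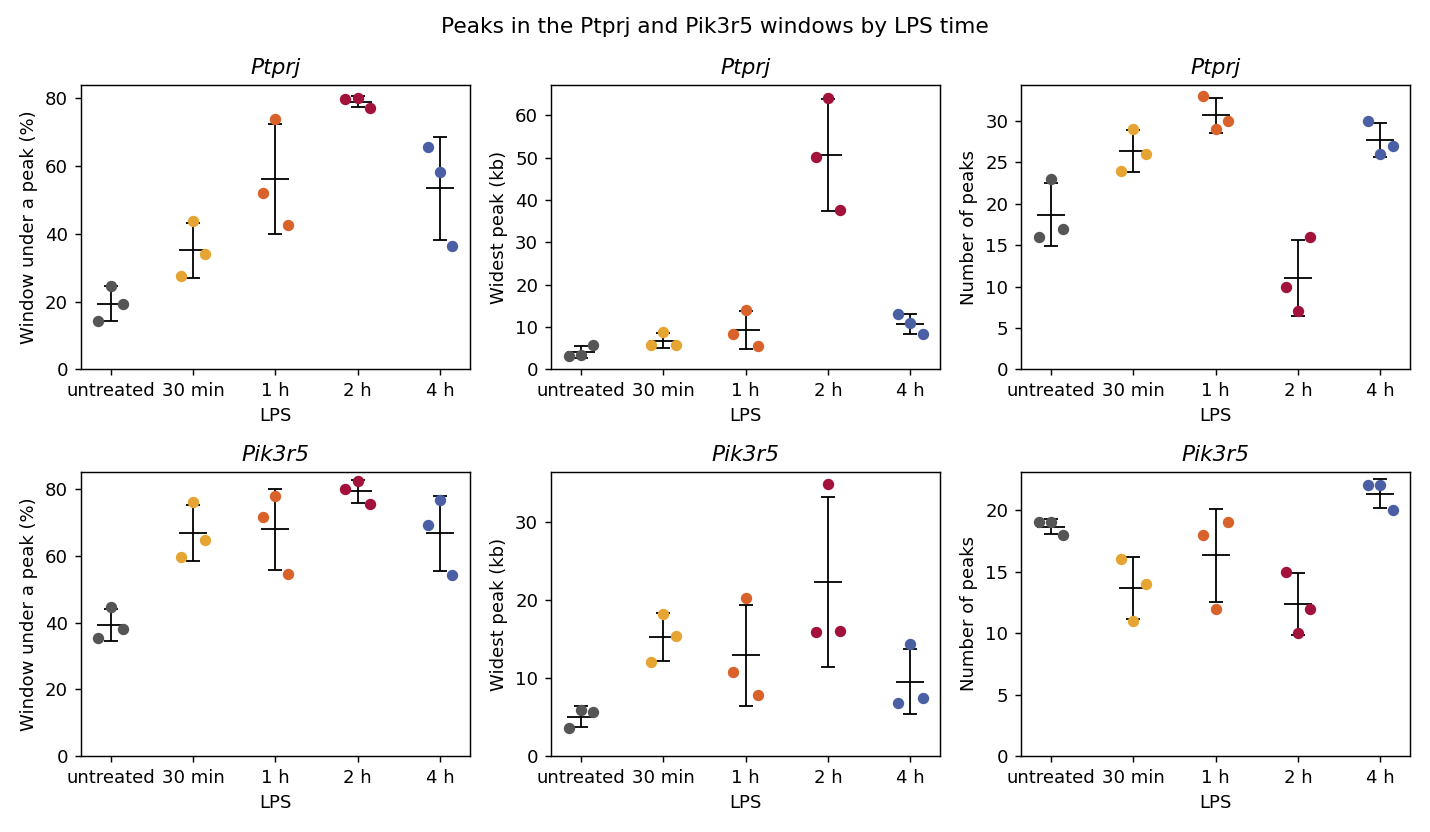
Share of each window under a peak (%), width of the widest peak (kb) and number of peaks, by LPS time. Points are libraries, bars the mean ± SD of 3; at Ptprj the 2 h libraries stand alone in width, at 37719 to 64074 bp, while at Pik3r5 the 30 min, 1 h and 2 h libraries overlap.

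Base by base, 84951 bp of the Ptprj window were covered by a peak in every 2 h library (3 of 3) and in 0 of 3 untreated ones. That is 61.3% of the window's bases under a peak in any library. Over all bases under a peak in any library of the series, the same pattern held for 5.25% at 2 h, 1.06% at 30 min, 1.98% at 1 h and 3.26% at 4 h. At Ptprj the shares at those other times were 6.29% at 30 min, 19.3% at 1 h and 14.2% at 4 h. The 84951 bp lay in 33 stretches, the longest of 9215 bp at chr2:90388419-90397633. In the reverse direction, 0 bp of the window were without a peak in every library of an LPS time and covered in 3 of 3 untreated ones. That reverse pattern was rare throughout the series, at 0.367% of bases for 30 min, 1.29% for 1 h, 0.819% for 2 h and 0.891% for 4 h, so nothing is read from its absence here. Of the 21452 bp covered in every untreated library, 21336 bp were covered in every 2 h library, and 20442 bp in all 15.

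Nearly all of these bases were also covered in at least 1 library of another LPS time. Of the 84951 bp, the 30 min libraries covered 11.5%, 39.6% and 23.8%, and the 1 h libraries 52.7%, 91.2% and 36.9%. The 4 h libraries covered 76.7%, 63.7% and 25.2%. Only 447 bp were covered in every 2 h library and in none of the 12 others. Replicate 3 had the shortest list at 1 h, 2 h and 4 h, with 52447, 66955 and 55777 peaks, and the lowest covered length at Ptprj at each of those times. At 30 min replicate 3 also had the shortest list, with 54168 peaks, but replicate 1 had the lowest covered length, 46993 bp. With lists of equal length, replicate 3 was still the lowest at the later times. Its covered length was then 72305 bp at 1 h, 130466 bp at 2 h and 57006 bp at 4 h. The part of list length in these differences between replicates was not tested.

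Along the window the change was uneven. In 10 equal stretches, the covered share was above all untreated libraries at 2 h in 9 at Ptprj, against 18.0% of stretches of that length across the genome. The first stretch held no peak in any library. In the third, chr2:90294000-90310999, no untreated library had a peak and the 2 h libraries averaged 96.3% ± 2.61 (SD, n = 3). The next stretches, chr2:90311000-90327999 and chr2:90328000-90344999, were covered to 100% in all 3 libraries at 2 h, against 20.8% ± 10.6 and 36.6% ± 3.48 in untreated cells (SD, n = 3). The last stretch changed least among those with peaks, with 72.6% ± 1.34 at 2 h and 53.8% ± 5.81 in untreated cells (SD, n = 3 each).

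Beside the window the 2 sides differed. In the adjoining 170 kb to the left no library of any group had a peak. In the adjoining 170 kb to the right, the covered length averaged 31789 ± 2835 bp at 2 h and 17659 ± 3208 bp in untreated cells (SD, n = 3 each), a 1.80-fold difference. All 2 h libraries lay above all untreated ones there. So did 23.4% of windows of that length, and nothing is read from it. The widest peak there averaged 3255 bp at 2 h and 2576 bp in untreated cells, so no block of the Ptprj kind was called beside the window.

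The 6 merged Ptprj regions account for all of its peaks. Peaks of at least 5 kb occurred in 3 of them, chr2:90288387-90347343, chr2:90347421-90411494 and chr2:90412096-90424824, and each of these had a peak in all 15 libraries. The first and the second gave the blocks at 2 h. In the one at chr2:90412096-90424824 the highest single widths were 5821 bp in untreated cells, 12350 bp at 2 h and 12517 bp at 4 h. The other 3 regions were under 2 kb and had a peak in 5, 2 and 9 libraries. No Ptprj region was complete (3 of 3 libraries) at any LPS time while empty in untreated cells, or the reverse. Regions were merged over all 15 lists, so those with 2 h blocks took in the untreated peaks beneath them. They could not count as empty in untreated cells, and nothing is read from this about newly covered bases.

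At Pik3r5 the widest peak was longer than in untreated cells from 30 min on. The part of the 100 kb window under a peak averaged 39.4% ± 4.75 in untreated cells, 66.9% ± 8.44 at 30 min and 68.0% ± 12.1 at 1 h (SD, n = 3 each). It averaged 79.3% ± 3.53 at 2 h, then 66.8% ± 11.3 at 4 h (SD, n = 3 each). The widest peak averaged 22346 ± 10914 bp at 2 h and 5098 ± 1310 bp in untreated cells (SD, n = 3 each). Peaks over 10 kb were present in every library at 30 min.

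**Figure D3:**
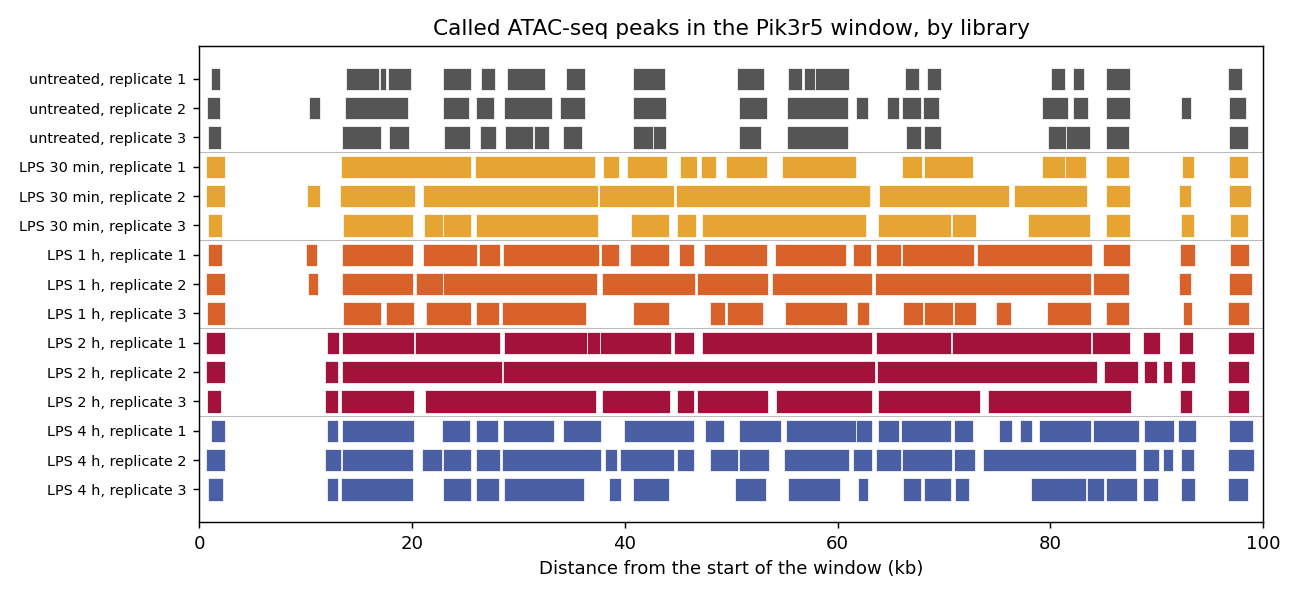
Called peaks in the Pik3r5 window, 1 row per library from untreated cells at the top to 4 h of LPS at the bottom, against the distance from the start of the window in kb. Peaks of 12149 to 18298 bp are already present at 30 min; the longest block, of 34948 bp, is in replicate 2 at 2 h.

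The covered length at Pik3r5 was 35469, 44676 and 38072 bp in the untreated libraries. It was 59824, 76246 and 64641 bp at 30 min and 71561, 77963 and 54490 bp at 1 h. At 2 h it was 80182, 82293 and 75408 bp, and at 4 h 69297, 76602 and 54406 bp. All libraries of each LPS time lay above all untreated ones, while the 4 LPS times overlapped each other. The 2 h mean exceeded the untreated mean by 39889 bp, a 2.01-fold difference, and the 30 min mean exceeded it by 27498 bp, a 1.70-fold difference. Of 15015 windows of that length, such separation from the untreated libraries was found in 4.96% for 30 min, 5.72% for 1 h, 23.1% for 2 h and 12.1% for 4 h. A larger difference was found in 11 of 15013 other windows at 2 h, in 6 at 30 min, in 18 at 1 h and in 23 at 4 h. As at Ptprj, the window was chosen for its widths, and nothing is read from these ranks. As a share of all bases under a peak in its own list, the Pik3r5 window was 1.65-fold its untreated share at 2 h and 1.64-fold at 30 min.

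The widest Pik3r5 peak was 3593, 5979 and 5722 bp in the untreated libraries. It was 12149, 18298 and 15413 bp at 30 min and 10760, 20256 and 7848 bp at 1 h. At 2 h it was 15991, 34948 and 16099 bp, and at 4 h 6846, 14364 and 7507 bp. Every LPS library exceeded every untreated one, but the 2 h libraries overlapped those of 30 min and 1 h and lay above those of 4 h. At 4 h the separation was narrow, and it ended after scaling to the covered length of each list, with 6047 bp as the lowest 4 h value and 6342 bp as the highest untreated one. The differences at 1 h and 4 h rested partly on replicate 2 of each time, at 4206 and 2079 bp without it against 7857 and 4474 bp with it. The remaining libraries of both times still lay above all untreated ones. The background shares for the separation from untreated libraries were 5.19% for 30 min, 5.51% for 1 h, 15.8% for 2 h and 11.6% for 4 h. The 2 h difference of 17248 bp rested partly on replicate 2, since it was 10947 bp without that library. With peaks within 500 bp joined it was 39306 bp. The blocks lay at chr11:68277255-68293245 in replicate 1, chr11:68258554-68293501 in replicate 2 and chr11:68251242-68267340 in replicate 3. They ranked 33, 7 and 27 in width in their lists, against 830, 324 and 227 in the untreated libraries.

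The number of Pik3r5 peaks was 19, 19 and 18 in untreated libraries, 16, 11 and 14 at 30 min, and 18, 12 and 19 at 1 h. It was 15, 10 and 12 at 2 h and 22, 22 and 20 at 4 h. Counts lay below all untreated ones at 30 min and 2 h, against 0.779% and 1.60% of equally long windows, and above them at 4 h, against 5.96%. Peaks of at least 10 kb numbered 2, 3 and 2 at 30 min and again 2, 3 and 2 at 2 h. There were 1, 2 and 0 at 1 h, 0, 1 and 0 at 4 h and none in the untreated libraries. Under the widest block of 2 h replicate 2 lay 7, 6 and 7 untreated peaks, 7, 3 and 4 peaks at 30 min and 7, 8 and 6 at 4 h.

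Of the Pik3r5 window, 27115 bp were covered by a peak in every 2 h library (3 of 3) and in 0 of 3 untreated ones. That is 31.2% of its bases under a peak in any library. The same count gave 13055 bp (15.04%) at 30 min, 10834 bp (12.48%) at 1 h and 8028 bp (9.25%) at 4 h. Across the series, the shares of such bases were 5.25% at 2 h and 1.06% at 30 min. They were 1.98% at 1 h and 3.26% at 4 h. The series-wide share was thus also highest at 2 h, and nothing is read from the lead of 2 h here. The longest of the 29 stretches at 2 h was 5013 bp, at chr11:68304166-68309178. The 30 min libraries covered 52.7%, 90.4% and 63.7% of the 27115 bp, the 1 h libraries 84.4%, 95.2% and 40.5%, and the 4 h libraries 60.6%, 85.6% and 29.3%. At 30 min these shares were all higher than at Ptprj, where the highest was 39.6%. All 32693 bp covered in every untreated library were covered in every 2 h library, and 31829 bp in all 15. Only 55 bp were covered in 3 of 3 libraries at 2 h and in none of the 12 others.

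**Figure D4:**
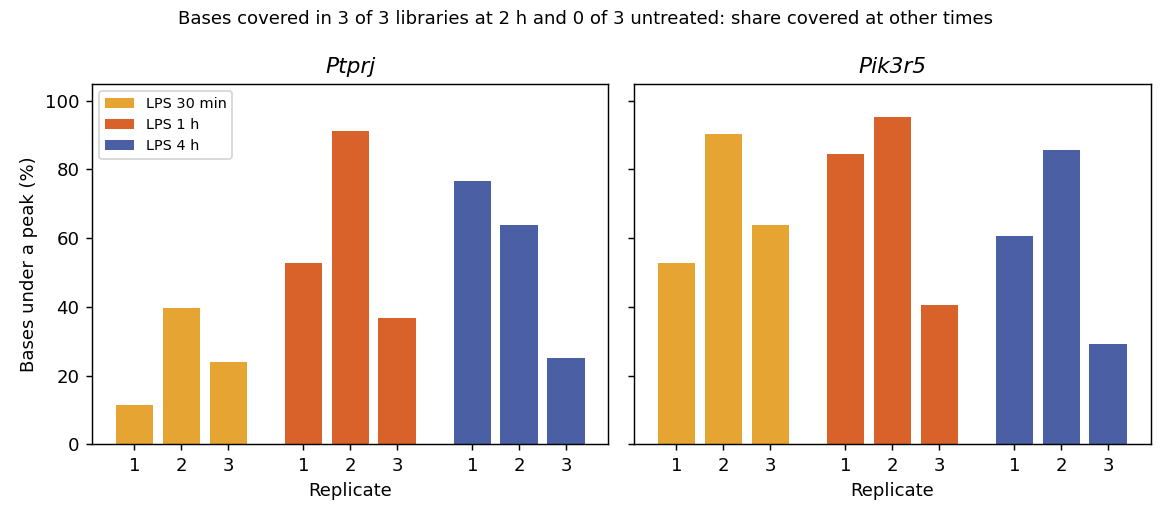
Share (%) of the bases covered in 3 of 3 libraries at 2 h and 0 of 3 untreated ones (84951 bp at Ptprj, 27115 bp at Pik3r5) that each library of the other LPS times covered. Bars are single libraries; at 30 min they reach 11.5% to 39.6% at Ptprj and 52.7% to 90.4% at Pik3r5.

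In all 10 equal stretches of the Pik3r5 window the 2 h libraries were above the untreated ones in covered share, against 16.5% of stretches of that length across the genome. The difference was largest in the eighth, chr11:68300000-68309999, with 97.2% ± 4.02 at 2 h and 3.38% ± 4.29 in untreated cells (SD, n = 3 each). It was smallest in the first, with 16.4% ± 2.35 at 2 h and 10.8% ± 2.08 in untreated cells. Covered length in the adjoining 100 kb averaged 7877 ± 208 bp at 2 h and 3725 ± 362 bp in untreated cells on the left (SD, n = 3 each). On the right it averaged 20688 ± 3306 bp at 2 h and 7615 ± 3321 bp in untreated cells. On both sides all 2 h libraries lay above all untreated ones. So did 23.1% of windows of that length, and nothing is read from it for the flanks. The widest peaks of the flanks averaged 2584 and 3795 bp at 2 h, against 2489 and 2441 bp in untreated cells.

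**Figure D5:**
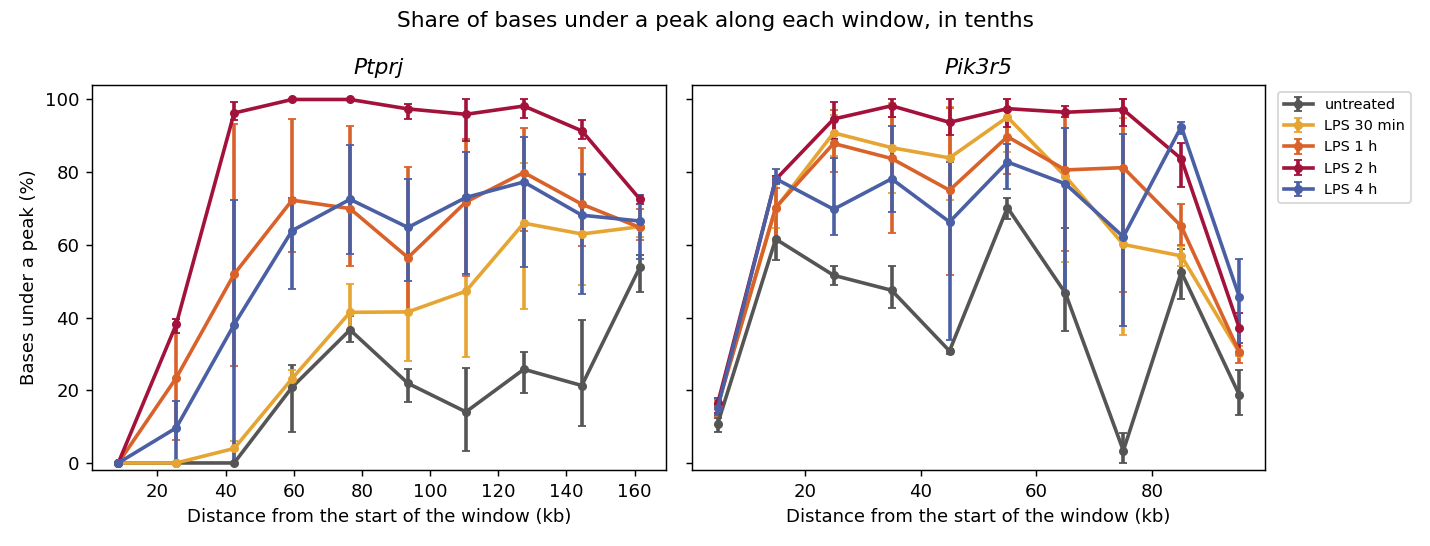
Share of bases under a peak (%) in 10 equal stretches of each window, against the distance from the start of the window in kb. Points are means of 3 libraries and bars run from the lowest to the highest; at Ptprj the 2 h line lies at 91.4% or more from the third to the ninth stretch, and at Pik3r5 untreated cells fall to 3.38% in the eighth.

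Of the 7 merged Pik3r5 regions, peaks of at least 5 kb occurred in chr11:68241793-68293501 and chr11:68293536-68318352, each with a peak in all 15 libraries. The 34 bp between them were under a peak in no library. In the second of these the highest single widths were 2487 bp in untreated cells, 12209 bp at 30 min, 20256 bp at 1 h and 20689 bp at 2 h. At 4 h the highest was 14364 bp. The region at chr11:68318666-68321603 carried a peak in all 3 libraries of 4 h and in 2 of 3 of 2 h. At 1 h, at 30 min and in untreated cells 0 of 3 libraries carried one. Across the series 2.79% of merged regions were complete at 4 h and empty in untreated cells in this way. The other 4 Pik3r5 regions held peaks of 2451 bp at most and had a peak in 15, 4, 13 and 15 libraries.

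Set side by side, the covered length at 30 min exceeded that of untreated cells by 26712 bp at Ptprj and 27498 bp at Pik3r5. The windows are of unlike length, 170 kb and 100 kb. As a share of its window the difference was 15.7 percentage points at Ptprj and 27.5 at Pik3r5. At 30 min the widest peak averaged 6801 bp at Ptprj and 15287 bp at Pik3r5, and at 2 h 50682 bp at Ptprj and 22346 bp at Pik3r5. The difference between the loci was not tested, since both were chosen for their widths. Over the 15 libraries the widest peaks of their largest regions varied together, with Pearson's r 0.889. This is a description over libraries that share their list lengths between the loci. Both loci were also chosen for widening at 2 h, so a positive r was partly set by that choice. It is no support for a link between the loci.

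Regions elsewhere with the most similar course were sought among 1740 regions that had a peak in at least 12 libraries and a peak of at least 5 kb in 1 of them. Closest to the Ptprj region chr2:90347421-90411494 were chr4:126112039-126117271 (r 0.969), chr2:68935087-68940573 (r 0.967) and chr2:68847947-68857017 (r 0.967), over 15 libraries. In the third of these the widest peak was 4246 to 9071 bp at 2 h and 1610 to 1778 bp in untreated cells. Closest to the Pik3r5 region chr11:68241793-68293501 were chr7:109377457-109383669 (r 0.893), chr10:7669976-7677430 (r 0.879) and again chr4:126112039-126117271 (r 0.876). In that shared region the widest peak was 2705 to 5123 bp at 2 h and 1627 to 1950 bp in untreated cells. Each of these regions elsewhere reached 5 kb at 2 h only. The filter and the reference regions, chosen for their widths at 2 h, thus favoured high 2 h widths. Nothing is read from these widths or correlations.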

How the data were processed

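ATAC-seq of 15 macrophage libraries was given as 1 peak list each. Bowtie 1.1.2, MACS 1.4 and build mm9 are named in the submitters' processing notes. How duplicates were handled, and any setting, is not given in the sources used here. Each line of the deposited lists holds a position, a name and a score, which the authors' caller gave (50 to 3233.06) and which was used here to filter peaks within a list. The lists share at most 13 identical intervals with each other, so peaks were called per library. Every list had 2 mitochondrial peaks, which were not used.

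Groups came from the sample titles. A peak counted in a window if it overlapped it by 1 bp; covered length was cut at the window edges and the widest peak taken whole. Background windows tile the genome, and those with a peak in any library count. Positions are 1-based. Named regions held a peak of at least 5 kb, or were complete (3 of 3 libraries) at an LPS time and empty in untreated cells, or the reverse; outside the windows the 3 with the highest Pearson correlation of widest peaks were named. The members and lists were chosen with earlier results of these data known, and no test is given. Planned gene lists, markers and gene features need an mm9 annotation and were not analysed here. Alternatives were a score of at least 100, lists of equal length, joining of peaks within 500 or 1000 bp, other window edges, scaling to covered length and leaving out each library. Interval functions were tested on simulated data. Python 3.11.15, pandas 2.3.3, numpy 2.4.6 and matplotlib 3.10.9 were used.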

Additional observations from a re-analysis of the deposited data

Results flagged for a closer look

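At Pik3r5 the number of peaks moved in opposite directions at different times. All 3 libraries at 4 h had more peaks than all untreated ones, by 2.67 on average, while all 3 at 30 min had fewer, with a difference of -5. The effects at 4 h and 30 min lay 7.67 peaks apart. All 3 libraries at 2 h also had fewer, with a difference of -6.33 from untreated cells, which puts the effects at 4 h and 2 h 9 peaks apart. Neither of these differences was tested, and the times share the same untreated libraries.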

How the results depend on the processing

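The 4 differences between 2 h and untreated cells (covered length and widest peak at each locus) stayed positive, with no overlap between the groups, in all 48 recalculations. Much of this was fixed in advance, because leaving out 1 library cannot make separated groups overlap. A score of at least 100, lists of equal length and other window edges also left the 2 h differences in widest peak unchanged. Scaling to the covered length of each list moved the covered length difference to 84417 bp at Ptprj and 27796 bp at Pik3r5. Joining peaks within 500 bp or 1000 bp moved the difference in widest peak to 86553 and 103818 bp at Ptprj, and to 39306 and 64753 bp at Pik3r5; joining lengthens blocks by construction. Leaving out 1 library gave 96874 to 105643 bp for covered length and 39881 to 53059 bp for the widest peak at Ptprj. At Pik3r5 it gave 37920 to 42524 bp and 10947 to 20426 bp. The Ptprj libraries at 2 h no longer all exceeded the 12 others in covered length after scaling (lowest 2 h value 115729, highest other 120392 bp) or joining within 1000 bp (134444 against 135060 bp). The same recalculations of the 30 min, 1 h and 4 h differences were added after the data had been seen: all 144 kept their direction, and the groups overlapped in 16 (Ptprj widest peak, 8 at 30 min and 7 at 1 h; Pik3r5 widest peak, 1 at 4 h). No paired analysis was possible because no model or test was used and the labels do not say that equal replicate numbers mark a shared mouse or culture; between libraries with the same number, 2 h minus untreated was 94157 to 111457 bp for Ptprj covered length. Read depth is unknown, so bases between peaks are not shown to be closed.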
